A study of Mus musculus with 3 samples.

Results

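The 9 genes described here encode proteins that move calcium out of the cytosol or out of mitochondria: the sodium-calcium exchangers Slc8a1, Slc8a2 and Slc8a3, the mitochondrial exchanger Slc8b1, the potassium-dependent exchangers Slc24a2, Slc24a3 and Slc24a4, and the plasma membrane calcium pumps Atp2b1 and Atp2b4. They were chosen by gene symbol, as 9 of the 27998 genes in the count tables. Single-nucleus RNA sequencing (10x Genomics) was made of whole mouse hearts at embryonic day 9.5. The libraries are Ncx1-/- (homozygous mutant), Ncx1+/- (heterozygous) and Ncx1+/+ (wild type) hearts. Ncx1 is an alias of Slc8a1, so the first gene of the set is the one altered in these genotypes. Flash-frozen hearts, 5 of each, were pooled per genotype and made into 1 library each, so no genotype has a replicate and no test between genotypes was possible. The sources used here give neither the kind of mutation nor the part of the gene deleted. The series title places these data in a study of blood flow, primary cilia of the endocardium and endothelial-to-mesenchymal transition.

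Each heartbeat raises cytosolic calcium, which must be removed before the next beat. The NCX exchangers (Slc8 family) use the inward sodium gradient to carry calcium out across the cell membrane, and Slc8a1 is the form of heart muscle. The NCKX exchangers (Slc24 family) move potassium together with calcium and are best known from retina, brain, smooth muscle and enamel-forming cells. The PMCA pumps (Atp2b family) expel calcium with the energy of ATP, with Atp2b1 found in most cells. Slc8b1, also called NCLX, carries calcium out of mitochondria in exchange for sodium. Mouse embryonic hearts without Slc8a1 are known to lack a regular beat and blood flow.

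Values are unique molecular identifiers (UMIs) summed over the nuclei of a class and given per 1000000 UMIs of that class (CPM). Longer genes can give more UMIs in nuclei, so levels are compared within a gene and not between genes. A gene is said to stand apart in 1 library if it lay at least 1.5-fold above, or below, each of the other two and the 95% counting interval of both ratios excluded 1. Genes with at least 100 counts over the 3 libraries in a class were called measured there. All intervals cover counting error only, not the spread between hearts.

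In all, 52985283 UMIs were counted in Ncx1-/-, 49022310 in Ncx1+/- and 59898298 in Ncx1+/+, and 11231, 11267 and 12464 nuclei were kept. Nuclei were gated by marker genes. The gates held 8971, 8398 and 8954 cardiomyocyte nuclei, 1505, 1957 and 2288 endothelial nuclei, which include the endocardium, and 54, 357 and 423 erythroid nuclei. Each of the 13 cardiomyocyte and the 13 endothelial markers was detected in its own class in each library. Cardiomyocyte markers also stood at 13.6, 10.2 and 9.97% of their own-class level in endothelial nuclei, so a low level of a heart muscle gene there is read as background. The nuclear RNA Malat1 took 9.44% of cardiomyocyte UMIs in Ncx1-/-, 5.79% in Ncx1+/- and 5.61% in Ncx1+/+. Between 40 and 57 barcodes were shared by each pair of libraries.

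The Ncx1+/- library stood apart in another way. Its cardiomyocyte nuclei fell into 2 groups of Slc8a1 level, with peaks at 2 and 18 UMIs per 2000 UMIs and a low point at 7. Nuclei of 0 to 6 Slc8a1 UMIs made up 95.6% in Ncx1-/-, 23.7% (22.7 to 24.7%) in Ncx1+/- and 7.87% in Ncx1+/+. In the low nuclei of Ncx1+/-, the 616 genes that stood higher in Ncx1-/- cardiomyocyte nuclei (Slc8a1 and Malat1 left out) took 147 of 10000 UMIs, against 95.5 in the nuclei of 7 or more. The 408 genes that stood lower took 78.0 and 114 of 10000 UMIs in these nuclei. In Ncx1+/+ the higher genes took 82.9 and 95.8 of 10000 UMIs, and the lower genes 96.7 and 112. Of the 616 higher genes, 554 (89.9%) were higher in the low nuclei than in the others of Ncx1+/-, beside 63.8% of all measured genes. In Ncx1+/+ the shares were 53.4 and 70.5%. The low nuclei of Ncx1+/- had a median of 3030 UMIs, against 3782 in the others, and 1.02% of their barcodes occurred in another library. In Ncx1+/+ the low nuclei had a median of 2910.5 UMIs, against 3971 in the others. Malat1 took 2.38% of their UMIs and 5.89% in the other Ncx1+/+ nuclei, whereas in Ncx1+/- it took 6.76 and 5.67%. Cardiomyocyte markers took 177 and 199 of 10000 UMIs in Ncx1+/+, and 208 and 209 in Ncx1+/-. The low nuclei of these libraries thus differed in more than Slc8a1. Where the low nuclei of Ncx1+/- came from, and whether every pooled heart was of the labelled genotype, was not tested. Values given for Ncx1+/- average both groups of nuclei and may not stand for heterozygous hearts alone. Calls in cardiomyocyte nuclei were therefore also made without the low nuclei of Ncx1+/- and Ncx1+/+. This split was chosen after seeing the data and could not be made in other classes. Ncx1-/- kept its low nuclei. Cardiomyocyte nuclei under 2000 UMIs (632 in Ncx1-/-, 947 in Ncx1+/- and 826 in Ncx1+/+) were left out as well.

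Promoter sequences of 3 members are shown because Slc8a1 is the gene removed and because Slc24a4 and Atp2b4 are the members whose levels were furthest above both other libraries in ventricular nuclei. They are from RefSeq (GRCm38.p6) and run from 250 bases before to 50 after the transcript start, 5′ to 3′ on the strand of the gene. Slc8a1 is at chr17:81738338-81738637 (minus strand), Slc24a4 at chr12:102128477-102128776 (plus strand) and Atp2b4 at chr1:133753698-133753997 (minus strand).
Slc8a1: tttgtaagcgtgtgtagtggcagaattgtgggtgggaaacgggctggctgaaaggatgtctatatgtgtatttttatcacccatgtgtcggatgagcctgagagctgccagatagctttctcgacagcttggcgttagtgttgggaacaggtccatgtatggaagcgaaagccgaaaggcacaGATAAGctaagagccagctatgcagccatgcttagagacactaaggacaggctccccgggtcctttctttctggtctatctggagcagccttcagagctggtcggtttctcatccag
Slc24a4: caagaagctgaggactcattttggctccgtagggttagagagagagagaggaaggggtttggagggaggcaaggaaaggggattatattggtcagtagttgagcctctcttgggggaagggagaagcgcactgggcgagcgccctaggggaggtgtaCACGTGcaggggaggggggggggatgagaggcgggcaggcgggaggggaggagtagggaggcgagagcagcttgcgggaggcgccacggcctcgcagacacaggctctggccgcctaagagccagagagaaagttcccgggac
Atp2b4: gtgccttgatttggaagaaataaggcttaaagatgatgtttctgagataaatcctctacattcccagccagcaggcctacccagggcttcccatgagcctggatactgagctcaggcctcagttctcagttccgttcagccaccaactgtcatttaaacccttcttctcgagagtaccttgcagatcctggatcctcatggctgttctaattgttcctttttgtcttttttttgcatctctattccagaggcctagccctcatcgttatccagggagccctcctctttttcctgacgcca
Capitals mark matches to the motifs searched on both strands. These were GATAAG of the GATA factors, the motif of MEF2, the HIF motif ACGTG and the T-box motif TCACACCT. The Slc8a1 promoter held 1 GATAAG at position -67, a motif found in 7.44% of 32851 promoters. In the Slc24a4 promoter ACGTG matched on both strands at overlapping positions, and 19.6% of promoters held ACGTG. The Atp2b4 stretch is at a RefSeq transcript start that lies inside the gene as GENCODE gives it (1, 133699457 to 133801041, minus strand), far downstream of the annotated start. It held none of the 4 motifs, of which the MEF2 motif was found in 3.69% and TCACACCT in 1.28% of promoters. A match is a description of these letters and not a binding site. Of the members, 8 of 9 had a promoter in the table.

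Slc8a1 (ENSMUSG00000054640, chromosome 17, 81373105 to 81738377, minus strand, mm10) fell in Ncx1-/- cardiomyocyte nuclei, and the Ncx1+/- level lay between Ncx1-/- and Ncx1+/+. It had 45245 counts and 1262 CPM in Ncx1-/-, 269493 counts and 8747 CPM in Ncx1+/-, and 594388 counts and 16715 CPM in Ncx1+/+ nuclei. The ratio to Ncx1+/+ was 0.0755 (0.0748 to 0.0762) in Ncx1-/- and 0.523 (0.521 to 0.526) in Ncx1+/-. With the nuclei of 0 to 6 UMIs left out of Ncx1+/- and Ncx1+/+, the Ncx1+/- ratio was 0.602. These nuclei were left out by their Slc8a1 count, at 23.7% of Ncx1+/- and 7.87% of Ncx1+/+. A higher ratio follows from that choice, so 0.602 does not measure a heterozygous level. Whether the counts left in Ncx1-/- lie outside the deleted part is not known. Ncx1-/- nuclei whose barcode occurred in another library had 1321 CPM (1181 to 1473) from 324 counts in 65 nuclei. Those with no shared barcode had 1261 CPM (1250 to 1273) from 44921 counts in 8906 nuclei. Where the counts left in Ncx1-/- came from was not tested.

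**Figure D1:**
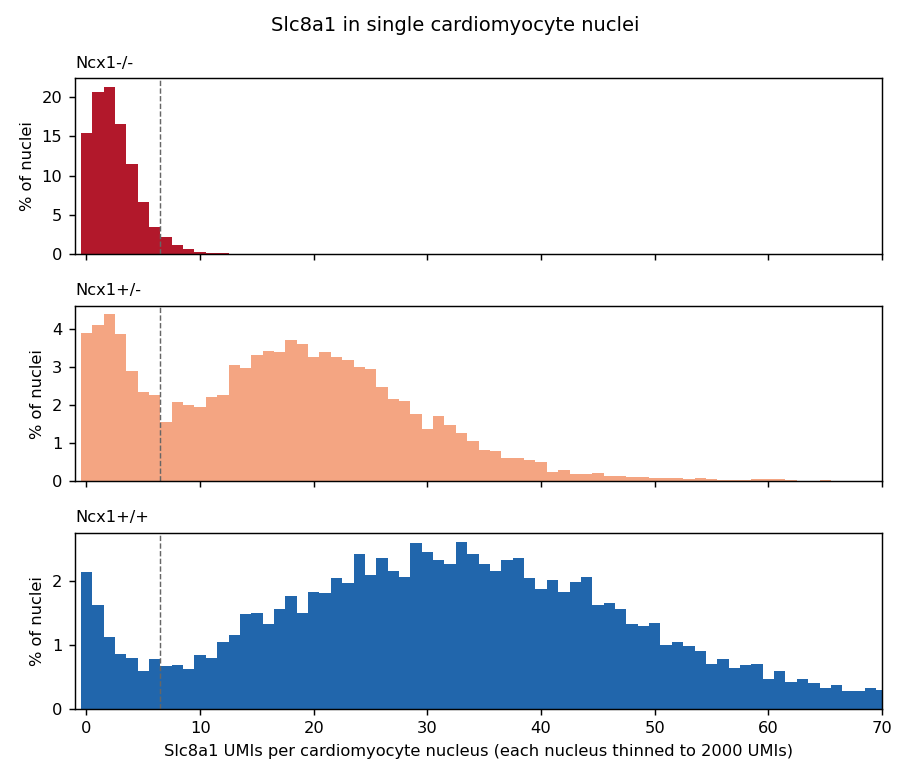
Share of cardiomyocyte nuclei (y axis, percent) by Slc8a1 UMIs (x axis) after each nucleus was thinned to 2000 UMIs, for Ncx1-/-, Ncx1+/- and Ncx1+/+ from top to bottom, each with its own y scale. The dashed line parts 0 to 6 from 7 or more UMIs, and 95.6, 23.7 and 7.87% of nuclei lie to its left.

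Thinned to the same depth, the median nucleus held 2 Slc8a1 UMIs in Ncx1-/-, 17 in Ncx1+/- and 32 in Ncx1+/+. The interquartile range spanned 1 to 4, 7 to 24 and 21 to 44 UMIs. The level was low in nearly all nuclei of Ncx1-/-, whereas the Ncx1+/- level averaged a low and an upper group of nuclei. Low nuclei were present in every chamber gate of Ncx1+/-. They made up 26.4% of ventricular, 22.1% of atrial, 18.8% of atrioventricular canal and 14.8% of outflow tract nuclei.

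Chamber gates were set on markers of the ventricle (such as Myl2 and Irx4), the atria (Nr2f2 and Shox2), the atrioventricular canal (Tbx2, Tbx3 and Bmp2) and the outflow tract (Isl1 and Wnt11), and left 4113, 4079 and 4049 nuclei with no chamber. Slc8a1 differed little between chambers. In Ncx1+/+ it was highest in the atrioventricular canal with 18061 CPM, followed by ventricular (16525), outflow tract (16028) and atrial nuclei (15628). In Ncx1-/- the levels were 1266, 1365, 1108 and 1134 CPM in the same gates, and in Ncx1+/- they were 9372, 8490, 8712 and 8457 CPM. The Ncx1-/- level was 7.01% of Ncx1+/+ in the canal, 8.26% in ventricular, 6.91% in outflow tract and 7.25% in atrial nuclei. Which chamber was higher turned with the way chambers were set for 3 of these ratios, as given among the processing results.

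Outside heart muscle Slc8a1 was low. Endothelial nuclei had 26.9 CPM in Ncx1-/-, 132 in Ncx1+/- and 292 in Ncx1+/+, which is 2.13, 1.51 and 1.75% of the cardiomyocyte level and thus below the carryover of cardiomyocyte markers. Epicardial nuclei, which surround the heart, had 99.4 CPM (27 counts in 83 nuclei) in Ncx1-/- and 1379 CPM (320 counts in 64 nuclei) in Ncx1+/+, at 7.88 and 8.25% of the cardiomyocyte level. Cardiomyocyte markers stood at 14.5 and 15.4% of their own-class level in these nuclei, above the share of Slc8a1. The epicardial share of Slc8a1 was in turn above its endothelial share of 2.13 and 1.75% in these libraries. Carryover and expression therefore cannot be told apart for epicardial Slc8a1. The Ncx1+/- library held 2 epicardial nuclei with no Slc8a1 count. In erythroid nuclei Slc8a1 had 92.8 CPM from 9 counts in Ncx1-/-, 178 in Ncx1+/- and 387 in Ncx1+/+. Cardiomyocyte markers stood at 20.6, 16.7 and 15.9% of their own-class level there, and Slc8a1 at a smaller share of its cardiomyocyte level.

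No other member stood apart in Ncx1-/- cardiomyocyte nuclei, where 9 of 9 were measured: 0 of the 8 others were higher and 0 were lower. Of 14198 measured genes, 4.35% stood higher and 2.88% lower there. The median log2 ratio to Ncx1+/+ was -0.14 over these 8 and -0.02 over all measured genes. In Ncx1+/- 0 of 9 members stood apart, against 0.254% of genes higher and 0.148% lower. The member with the highest ratio was Atp2b4.

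**Figure D2:**
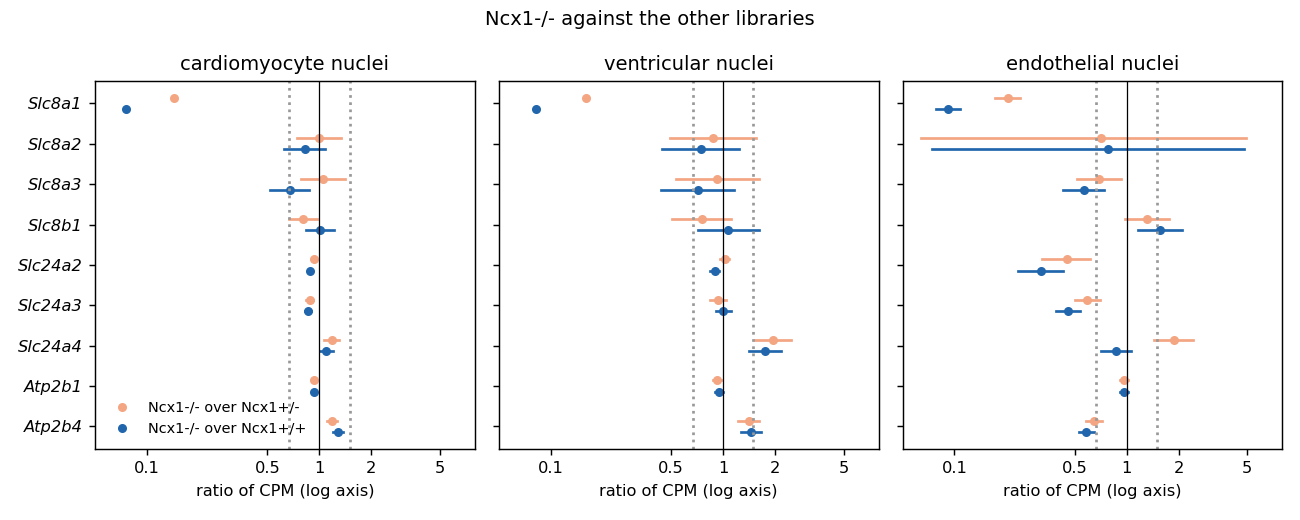
Ratio of CPM of Ncx1-/- to Ncx1+/- (orange) and to Ncx1+/+ (blue) for the 9 members in cardiomyocyte, ventricular and endothelial nuclei, on a log axis. Bars are 95% counting intervals and dotted lines mark 1.5-fold in each direction. Slc8a1 lies far to the left in each panel, Slc24a4 lies beyond the right line in ventricular nuclei, and Slc24a2, Slc24a3 and Atp2b4 lie beyond the left line in endothelial nuclei.

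The other NCX genes were hardly detected in heart muscle. Slc8a2, the form of brain, had 2.87 CPM in Ncx1-/-, 2.89 in Ncx1+/- and 3.49 in Ncx1+/+ cardiomyocyte nuclei, from 103, 89 and 124 counts. Slc8a3, the form of skeletal muscle and brain, had 2.90, 2.76 and 4.30 CPM from 104, 85 and 153 counts. Its ratio of Ncx1-/- was 0.674 (0.520 to 0.870) to Ncx1+/+ and 1.05 to Ncx1+/-. The mitochondrial exchanger Slc8b1 had 6.39, 7.95 and 6.30 CPM, a ratio to Ncx1+/+ of 1.01 (0.840 to 1.22) in Ncx1-/-. None of these 3 genes stood higher where Slc8a1 was lost.

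The NCKX genes differed in level between chambers and did not stand apart over all cardiomyocyte nuclei. In cardiomyocyte nuclei Slc24a2 had 317 CPM in Ncx1-/-, 341 in Ncx1+/- and 359 in Ncx1+/+ (ratio to Ncx1+/+ 0.884, 0.862 to 0.907), and Slc24a3 had 97.9, 112 and 114 CPM (0.859, 0.821 to 0.899). Slc24a4 had 28.3, 24.0 and 25.7 CPM (1.10, 1.01 to 1.21).

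Slc24a2 was highest in atrial and atrioventricular canal nuclei. Atrial nuclei had 421 CPM in Ncx1-/-, 541 in Ncx1+/- and 663 in Ncx1+/+, which is 1.76, 2.31 and 2.47 times the ventricular level. Canal nuclei had 492, 485 and 479 CPM, and outflow tract nuclei 194, 284 and 257 CPM. Ventricular nuclei had 240, 234 and 268 CPM. In Ncx1+/+ the outflow tract and ventricular intervals overlapped, and the other chambers did not. The atrial level in Ncx1-/- was 0.634 (0.593 to 0.679) of Ncx1+/+ and 0.778 of Ncx1+/-, so it did not stand apart.

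Slc24a3, known from brain and smooth muscle, was lowest in ventricular nuclei in each library. Its atrial and canal levels were the highest in Ncx1-/- and Ncx1+/+, whereas in Ncx1+/- the canal and the outflow tract lay above the atria. It had 150 CPM in Ncx1-/-, 131 in Ncx1+/- and 187 in Ncx1+/+ atrial nuclei, and 143, 157 and 171 CPM in the canal. Outflow tract nuclei had 99.3, 148 and 140 CPM and ventricular nuclei 71.0, 76.0 and 70.6 CPM. The atrial level was 2.11, 1.73 and 2.65 times the ventricular level. Its highest Ncx1+/+ level was in epicardial nuclei, with 339 CPM (92 counts) in Ncx1-/- and 431 CPM (100 counts) in Ncx1+/+, or 3.46 and 3.78 times the cardiomyocyte level.

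Slc24a4, known from enamel and brain, marked the atrioventricular canal. Canal nuclei had 60.2 CPM in Ncx1-/-, 58.9 in Ncx1+/- and 63.4 in Ncx1+/+, and atrial nuclei 19.8, 15.5 and 15.4 CPM. The outflow tract held 5, 2 and 1 counts. In ventricular nuclei it had 262, 94 and 130 counts, which is 23.9, 12.3 and 13.7 CPM. The canal level was therefore 2.52 (2.14 to 2.97) times the ventricular level in Ncx1-/-, 4.81 (3.82 to 6.1) times in Ncx1+/- and 4.63 (3.81 to 5.67) times in Ncx1+/+. In thinned nuclei these ratios were 3.86, 3.74 and 3.03, so their order between libraries was not stable.

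**Figure D3:**
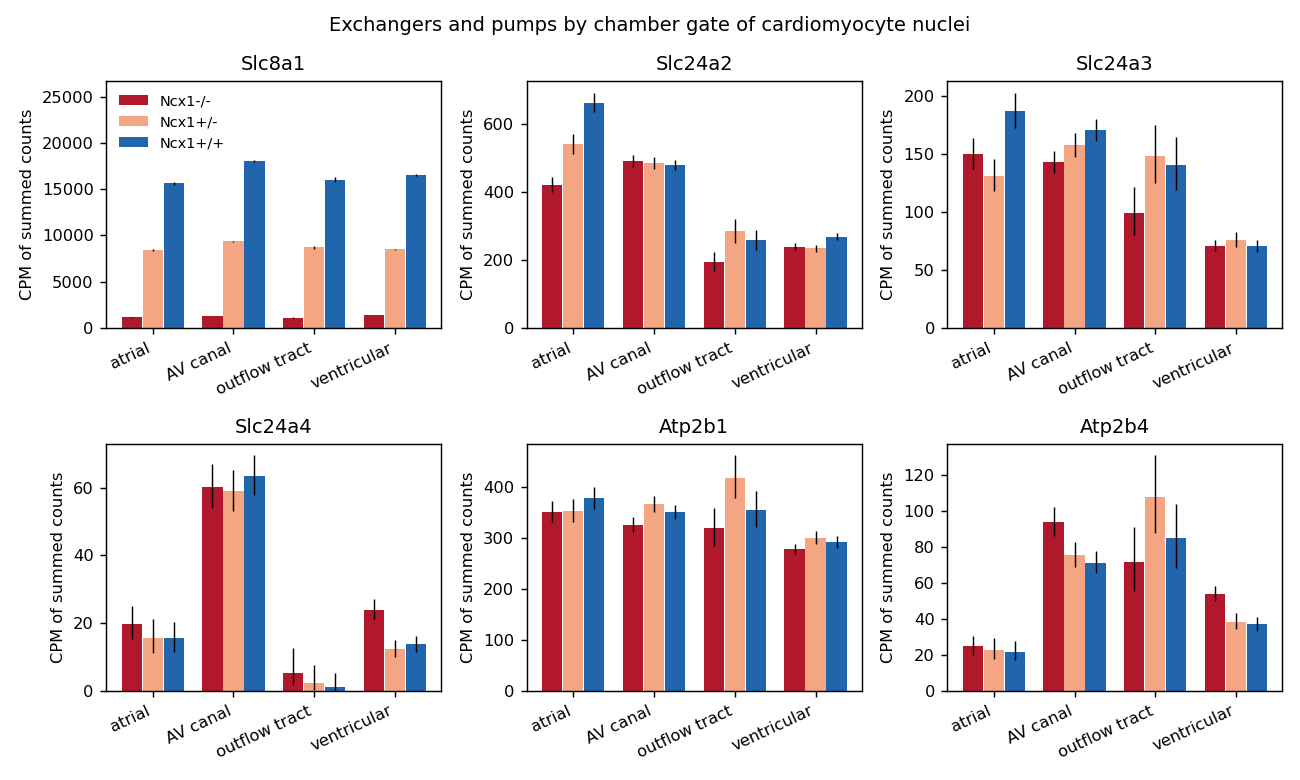
CPM of summed counts (y axis, linear, its own scale per gene) of 6 members in the atrial, atrioventricular (AV) canal, outflow tract and ventricular gates of cardiomyocyte nuclei, for Ncx1-/-, Ncx1+/- and Ncx1+/+. Bars start at 0 and lines are 95% exact Poisson intervals. Slc24a2 is highest in atrial and canal nuclei of each library, as is Slc24a3 in Ncx1-/- and Ncx1+/+ but not in Ncx1+/-, Slc24a4 is highest in the canal and Atp2b4 in canal and outflow tract nuclei.

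In the ventricular gate 1 of the 6 other measured members rose in Ncx1-/-, and it was Slc24a4. Its ratio was 1.74 (1.41 to 2.17) to Ncx1+/+ and 1.95 (1.53 to 2.49) to Ncx1+/-. Of 11584 measured genes 3.88% stood higher and 1.91% lower in this gate. The 5 markers of the atrioventricular canal, where the gene is high, were used in setting the gates and were all detected in ventricular nuclei. They summed to 82.3 CPM in Ncx1-/-, 92.3 in Ncx1+/- and 103 in Ncx1+/+, a difference that lay in Rspo3 (22.9, 34.4 and 47.8 CPM). Tbx2 had 18.5, 18.1 and 18.1 CPM, Tbx3 29.3, 26.1 and 27.3 CPM, Bmp2 6.74, 9.78 and 6.21 CPM and Msx2 4.83, 3.91 and 3.16 CPM. Their part in the Slc24a4 level was not tested. Ventricular nuclei marked by Hand1 or Cited1 had 17.8, 6.61 and 12.5 CPM of Slc24a4, and those marked by Gja5 or Bmp10 had 19.1, 7.69 and 10.0 CPM. With chambers taken from clusters the ventricular levels were 22.6, 12.6 and 12.97 CPM, a ratio to Ncx1+/+ of 1.74. Slc24a4 also stood apart with the low nuclei of Ncx1+/- and Ncx1+/+ left out. The low ventricular nuclei had more Slc24a4 than the others, at 16.6 against 11.1 CPM in Ncx1+/- and 19.8 against 13.4 CPM in Ncx1+/+. Leaving them out of these libraries alone favours a higher ratio. The call was lost with each nucleus thinned to 2000 UMIs before gating, where 52, 31 and 46 counts were left, at 20.6, 17.3 and 23.9 CPM, and the ratio to Ncx1+/+ was 0.859 (0.566 to 1.31).

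With the marker gates, chamber nuclei other than ventricular gave no further call. In atrial nuclei, where 6 members were measured, 0 of the 5 other than Slc8a1 stood apart, against 2.0% of genes higher and 2.46% lower. In the canal 0 of 6 did, against 3.28 and 3.37%, and in the outflow tract 0 of 4, against 3.26 and 4.91%. In Ncx1+/- none of the measured members stood apart in any chamber. The shares of genes higher and lower were 0.268 and 0.164% in ventricular and 0.244 and 0.355% in atrial nuclei. They were 0.219 and 0.0821% in canal and 0.729 and 0.211% in outflow tract nuclei. With chambers taken from clusters, Slc24a3 met the rule for a lower level in outflow tract nuclei of Ncx1-/-. Its ratio was 0.581 (0.486 to 0.693) to Ncx1+/+ and 0.523 (0.437 to 0.625) to Ncx1+/-. Thinned nuclei gave 0.732 (0.462 to 1.14) to Ncx1+/+. The share of all genes called was not computed for these outflow tract settings.

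The pump genes differed from each other. Atp2b1 was level across classes and genotypes, with 303 CPM in Ncx1-/-, 325 in Ncx1+/- and 324 in Ncx1+/+ cardiomyocyte nuclei, 305, 316 and 317 CPM in endothelial nuclei and 381, 340 and 313 CPM in erythroid nuclei. Between chambers it varied by 1.15 to 1.39 times the ventricular level. Epicardial nuclei had more, with 516 CPM in Ncx1-/- and 647 in Ncx1+/+, as did nuclei with epithelial or other extracardiac markers, with 556 and 658 CPM.

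Atp2b4, a pump also studied as a regulator of nitric oxide signalling, was higher in endothelial and erythroid nuclei than in cardiomyocyte nuclei of Ncx1+/+. It had 153 CPM in endothelial and 150 CPM in erythroid nuclei of Ncx1+/+, whose intervals overlapped, then 84.9 in outflow tract, 71.3 in canal, 37.1 in ventricular and 21.7 in atrial nuclei. The intervals of outflow tract and canal nuclei also overlapped. In heart muscle its Ncx1-/- level lay above both other libraries, by less than 1.5-fold. Cardiomyocyte nuclei had 61.2 CPM in Ncx1-/-, 51.4 in Ncx1+/- and 47.6 in Ncx1+/+, a ratio of 1.29 (1.21 to 1.37) to Ncx1+/+ and 1.19 (1.12 to 1.27) to Ncx1+/-. Ventricular nuclei had 592, 294 and 352 counts, or 53.9, 38.3 and 37.1 CPM, with ratios of 1.45 (1.27 to 1.66) and 1.41 (1.22 to 1.62). In the canal the levels were 93.9, 75.4 and 71.3 CPM, in atrial nuclei 24.8, 22.8 and 21.7 CPM and in the outflow tract 71.6, 108 and 84.9 CPM. In the outflow tract the direction was not stable, since thinned nuclei gave 81.0, 111 and 69.7 CPM and chambers taken from clusters 92.9, 96.9 and 93.8 CPM. In atrial nuclei the cluster chambers gave 40.7, 33.8 and 23.8 CPM. With the low nuclei of Ncx1+/- and Ncx1+/+ left out, the ventricular ratio to Ncx1+/+ was 1.5 and Atp2b4 stood apart. The low ventricular nuclei had more Atp2b4 than the others, at 51.0 against 34.2 CPM in Ncx1+/- and 47.6 against 35.8 CPM in Ncx1+/+. Leaving them out of these libraries alone favours a higher ratio, so the call follows in part from that choice. Thinned nuclei gave 54.9, 31.8 and 31.2 CPM, a ratio of 1.76 (1.29 to 2.42), and Atp2b4 also stood apart there. The shares of all genes called at these settings are not given here.

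Within the Ncx1+/- library the nuclei of 0 to 6 Slc8a1 UMIs were set beside those of 7 or more, which were sequenced in the same library. Atp2b4 had 60.1 CPM in the low nuclei and 48.9 CPM in the others of Ncx1+/-, a ratio of 1.23 (1.09 to 1.39). In Ncx1+/+ the levels were 43.0 and 47.9 CPM, 0.898 (0.715 to 1.11), and in Ncx1-/- 59.7 and 88.1 CPM, 0.678 (0.575 to 0.804). Among ventricular nuclei of Ncx1+/- Atp2b4 had 51.0 and 34.2 CPM (1.49, 1.14 to 1.93), and Slc24a4 had 16.6 and 11.1 CPM from 27 and 66 counts (1.49, 0.916 to 2.37). In Ncx1+/+ these ventricular ratios were 1.33 (0.839 to 2.01) and 1.48 (0.694 to 2.83). In Ncx1-/- they lay on the other side of 1, at 0.581 (0.441 to 0.780) and 0.666 (0.429 to 1.08). The Ncx1-/- nuclei of 7 or more UMIs held 56 and 22 counts.

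Slc24a2, Slc24a3 and Atp2b1 had lower levels in the low nuclei of Ncx1+/- than in the others. The ratio was 0.819 (0.777 to 0.863) for Slc24a2 and 0.771 (0.702 to 0.847) for Slc24a3, and in Ncx1+/+ it was 0.612 and 0.597. For Atp2b1 it was 0.929 (0.882 to 0.978) in Ncx1+/- and 1.17 (1.09 to 1.26) in Ncx1+/+. Slc24a4 over all cardiomyocyte nuclei had a ratio of 1.14 (0.951 to 1.37) in Ncx1+/-.

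**Figure D4:**
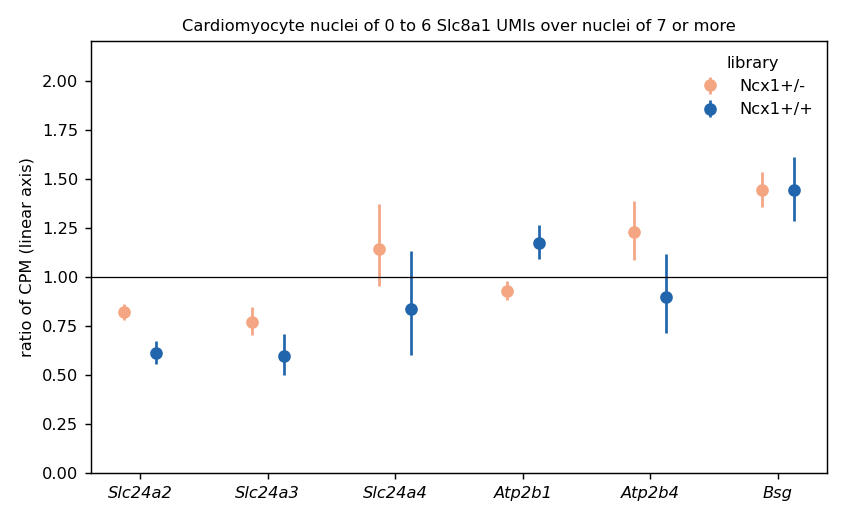
Ratio of CPM (y axis, linear) of cardiomyocyte nuclei of 0 to 6 Slc8a1 UMIs to those of 7 or more UMIs in the same library, for Ncx1+/- (orange) and Ncx1+/+ (blue), with 95% counting intervals. Atp2b4 lies at 1.23 in Ncx1+/- and at 0.898 in Ncx1+/+, with intervals that overlap, and Bsg lies at 1.44 in both.

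In cardiomyocyte nuclei the ratio of Ncx1-/- to Ncx1+/+ was below 1 for Slc24a2 (0.884) and Slc24a3 (0.859) and above 1 for Atp2b4 (1.29). In endothelial nuclei 8 members were measured, and 3 of the 7 other than Slc8a1 stood lower in Ncx1-/-, namely Slc24a2, Slc24a3 and Atp2b4. None stood higher than both other libraries. Of 11065 measured genes 4.15% stood lower and 7.35% higher. The median log2 ratio to Ncx1+/+ was -0.78 over these 7 members and 0.10 over all measured genes. Endothelial nuclei of Ncx1-/- were shallower, with a median of 3638 UMIs against 4102 in Ncx1+/- and 4900 in Ncx1+/+. The 10 cushion mesenchyme markers summed to 374, 663 and 830 CPM in them, and the 4 trabecular markers to 473, 1206 and 1114 CPM. The part of these shifts in the members' levels was not tested.

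Atp2b4 had 548 counts and 89.2 CPM in Ncx1-/-, 1197 counts and 138 CPM in Ncx1+/-, and 1828 counts and 153 CPM in Ncx1+/+ endothelial nuclei. Its ratio was 0.583 (0.529 to 0.642) to Ncx1+/+ and 0.646 (0.583 to 0.716) to Ncx1+/-. It stood lower both in the mesenchyme-marked nuclei, with 44.0, 118 and 130 CPM, and in those not so marked, with 93.3, 143 and 161 CPM. In the mesenchyme-marked gate 3.65% of measured genes stood lower, and in the other 4.2% stood lower and 7.33% higher. The endothelial level was 1.46, 2.68 and 3.21 times the cardiomyocyte level.

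In Ncx1+/- and Ncx1+/+ Atp2b4 had its highest endothelial level in nuclei marked by Fam155a or Adamts19. These nuclei, 33, 160 and 231 in number, had 83.9 CPM (14 counts) in Ncx1-/-, 285 (261 counts) in Ncx1+/- and 295 (451 counts) in Ncx1+/+, a ratio of Ncx1-/- to Ncx1+/+ of 0.284 (0.154 to 0.482). The levels were 0.939 (0.510 to 1.59), 2.36 (2.05 to 2.71) and 2.23 (2.0 to 2.49) times the other endothelial nuclei. This gate held 0.294, 1.42 and 1.85% of kept nuclei, with medians of 4706, 5601 and 6041 UMIs. The part of these differences in the ratios was not tested. Nuclei marked by Sema4d, 20, 38 and 61 in number, had 83.4, 261 and 247 CPM, at 0.933, 1.93 and 1.65 times the others. In nuclei marked by Tbx5 or Ebf3 the levels were 120, 181 and 188 CPM, at 1.46, 1.37 and 1.28 times the others.

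**Figure D5:**
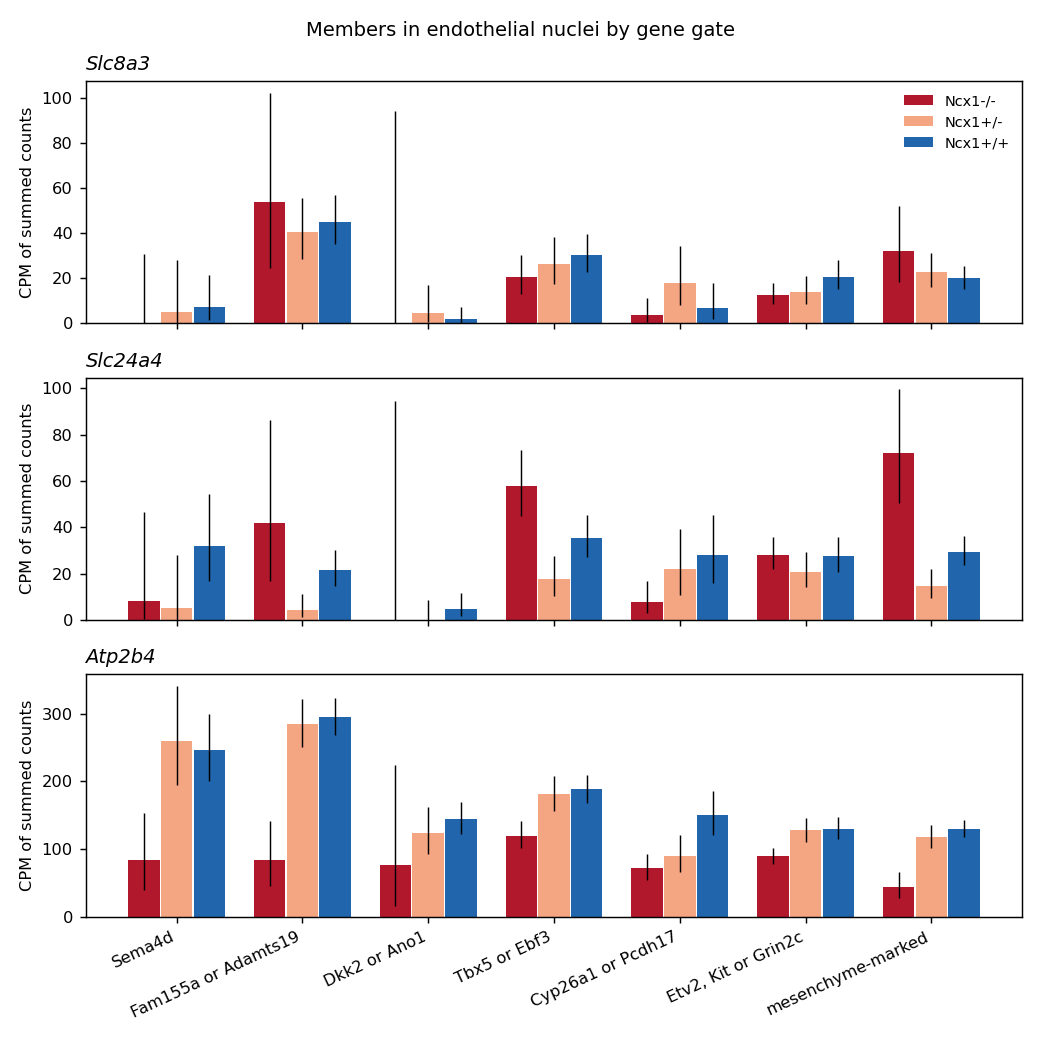
CPM of summed counts (y axis, linear) of Slc8a3, Slc24a4 and Atp2b4 in endothelial nuclei gated by the genes named on the x axis, for Ncx1-/-, Ncx1+/- and Ncx1+/+, with 95% exact Poisson intervals. Atp2b4 is at 83.9 CPM in Ncx1-/- against 285 and 295 CPM in the Fam155a or Adamts19 gate, and Slc24a4 at 72.0 CPM in Ncx1-/- against 14.8 and 29.4 CPM in mesenchyme-marked nuclei.

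Slc24a3 had 32.4 CPM in Ncx1-/-, 54.9 in Ncx1+/- and 70.9 in Ncx1+/+ endothelial nuclei, a ratio of 0.457 (0.390 to 0.534) to Ncx1+/+ and 0.590 (0.498 to 0.698) to Ncx1+/-. Slc24a2 had 8.79, 19.6 and 27.5 CPM, a ratio of 0.319 (0.235 to 0.427) to Ncx1+/+. These levels of Slc24a2 were 2.77, 5.76 and 7.67% of its cardiomyocyte level and lay below the summed carryover of cardiomyocyte markers in each library. In Ncx1+/- and Ncx1+/+ they lay above the 1.51 and 1.75% of Slc8a1. They also differed between gates, with 24.0, 45.6 and 53.2 CPM in mesenchyme-marked and 7.45, 13.6 and 18.5 CPM in the other endothelial nuclei. Carryover and expression in endothelial nuclei cannot be told apart for Slc24a2. The levels of Slc24a3 were 33.1, 49.2 and 62.2% of its cardiomyocyte level.

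Slc8a3 stood at 3.93, 5.98 and 4.69 times its cardiomyocyte level in endothelial nuclei, with 11.4 CPM in Ncx1-/-, 16.5 in Ncx1+/- and 20.2 in Ncx1+/+ from 70, 143 and 241 counts. Its ratio to Ncx1+/+ was 0.565 (0.427 to 0.741) and to Ncx1+/- 0.691, so it did not stand apart in the class. In nuclei not marked by mesenchyme genes it did, with 9.57, 15.04 and 20.2 CPM (0.473, 0.343 to 0.645). In the mesenchyme-marked nuclei it had 32.0, 22.8 and 20.01 CPM from 16, 37 and 62 counts, and the ratio to Ncx1+/+ was 1.60 (0.861 to 2.81). Endothelial nuclei held 38.7, 61.6 and 58.4% of all Slc8a3 counts and 13.7, 20.7 and 23.4% of all UMIs. The gene was highest in the Fam155a or Adamts19 gate, with 54.0 CPM (9 counts), 40.4 and 45.1 CPM.

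Slc24a4 was the single member that stood lower than both other libraries in Ncx1+/- endothelial nuclei, where 0.154% of measured genes stood lower and 0.127% higher. It had 143 counts and 23.3 CPM in Ncx1-/-, 108 counts and 12.5 CPM in Ncx1+/-, and 320 counts and 26.8 CPM in Ncx1+/+, so that Ncx1+/- was at 0.465 (0.370 to 0.580) of Ncx1+/+. In the mesenchyme-marked nuclei (those that also carried cushion mesenchyme markers) Slc24a4 stood higher in Ncx1-/-, with 72.0 CPM (36 counts in 119 nuclei), 14.8 CPM (24 counts in 357) and 29.4 CPM (91 counts in 587). That was 2.45 (1.62 to 3.64) times Ncx1+/+ and 4.87 (2.83 to 8.53) times Ncx1+/-, in a gate where 4.34% of genes stood higher. In Ncx1+/- it stood lower both in this gate, where 0.213% of genes stood lower and 0.241% higher, and in the remaining endothelial nuclei, with 0.197 and 0.075%. Nuclei marked by Tbx5 or Ebf3 had 57.9, 17.6 and 35.5 CPM. Slc8a3 and Slc24a4 were found in the same endothelial nucleus in 6 of 55 Slc8a3 nuclei of Ncx1-/-, 9 of 88 of Ncx1+/- and 18 of 151 of Ncx1+/+, out of 77, 77 and 179 nuclei with Slc24a4.

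Slc8b1 had 14.5 CPM in Ncx1-/-, 11.1 in Ncx1+/- and 9.29 in Ncx1+/+ endothelial nuclei, from 89, 96 and 111 counts. The ratio was 1.56 (1.17 to 2.08) to Ncx1+/+ and 1.31 (0.970 to 1.77) to Ncx1+/-, so it stood apart from Ncx1+/+ alone and not from both. Slc8a2 had 2, 4 and 5 counts, below the minimum. In erythroid nuclei 3 members were measured and none stood apart, against 2.0% of genes higher and 3.21% lower in Ncx1-/-, and 0.132 and 0.448% in Ncx1+/-. Atp2b4 had 103 CPM from 10 counts in Ncx1-/-, 153 in Ncx1+/- and 150 in Ncx1+/+ erythroid nuclei.

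Of the 52 other genes listed for calcium and sodium transport, 51 were in the tables and 46 were measured in cardiomyocyte nuclei. There 2 stood higher in Ncx1-/- and 5 lower, beside 4.35 and 2.88% of all measured genes, and their median log2 ratio to Ncx1+/+ was -0.06 against -0.02 over all measured genes. In endothelial nuclei 3 of 39 stood higher and 2 lower, beside 7.35 and 4.15% of all genes, and in ventricular nuclei 2 of 43 higher and 1 lower, beside 3.88 and 1.91%. The shares of the list that stood higher were near those of all genes. The 5 of 46 that stood lower in cardiomyocyte nuclei were a larger share than the 2.88% of all genes, a difference that was not tested. The genes named next are described one by one and not as a group. None stood apart in Ncx1+/- in these 3 gates.

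Bsg (basigin), a membrane protein that binds the PMCA pumps and lactate transporters as a subunit, rose in each of these gates. It had 319 CPM in Ncx1-/-, 183 in Ncx1+/- and 124 in Ncx1+/+ cardiomyocyte nuclei, a ratio of 2.56 (2.47 to 2.65) to Ncx1+/+ and 1.75 (1.69 to 1.80) to Ncx1+/-. In endothelial nuclei it had 233, 104 and 70.5 CPM, ratios of 3.30 and 2.24. The low nuclei of Ncx1+/- had 234 CPM of Bsg against 163 in the others, 1.44 (1.35 to 1.53), but in Ncx1+/+ the ratio was also 1.44 (1.29 to 1.61). Nptn (neuroplastin), the other PMCA subunit, had 220, 252 and 243 CPM in cardiomyocyte and 215, 240 and 218 CPM in endothelial nuclei and did not stand apart.

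Itpr3, a calcium release channel of the endoplasmic reticulum, also rose, with 7.28 CPM in Ncx1-/-, 4.74 in Ncx1+/- and 3.46 in Ncx1+/+ cardiomyocyte nuclei and 48.2, 26.1 and 29.9 CPM in endothelial nuclei. Pln (phospholamban), the inhibitor of the SERCA pump and a heart muscle gene, rose in endothelial nuclei, with 8.63, 5.42 and 5.27 CPM, against 77.8, 61.1 and 62.3 CPM in cardiomyocyte nuclei, so its endothelial level was no higher than the carryover of cardiomyocyte markers. Atp2a1, a SERCA pump of skeletal muscle named after its values were seen, rose in ventricular nuclei, with 6.92, 4.43 and 3.58 CPM. The genes that fell in cardiomyocyte nuclei included Atp2b2, the PMCA pump of neurons and hair cells (22, 39 and 52 counts), Slc4a4, a sodium bicarbonate transporter (81.0, 123 and 128 CPM), Stim2, a calcium sensor of the endoplasmic reticulum (34.9, 53.0 and 55.4 CPM), and Sntb1, a syntrophin (39.8, 61.6 and 66.5 CPM). In endothelial nuclei Slc4a4 (29.3, 51.6 and 60.9 CPM) and the anchor protein gene Ank2 (133, 222 and 238 CPM) fell. The remaining family members were Slc24a5, at 51.0, 51.9 and 69.8 CPM in cardiomyocyte nuclei, which did not stand apart, and Slc24a1 and Atp2b3, at 11, 5 and 15 and at 4, 7 and 0 counts, below the minimum.

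Genes of like pattern were looked for over 18 Ncx1+/+ groups of nuclei (classes, chambers and endothelial gates), which overlap and share a library, among 11435 genes. These are descriptions with no test. Slc8a1 was most like the muscle genes Trim55 (Pearson r = 0.995), Rbm24 (0.990) and Kcnn2 (0.990). Atp2b4 was most like Chd8 (0.977), Ubash3b (0.95) and Rela (0.947), and Slc24a4 was most like Gatm (0.896), Kif21b (0.869) and Fbxl19 (0.815). Slc24a3 was nearest to Magi2 (0.919), Dip2a (0.917) and Ppp1r9a (0.915), Slc8a3 to Bsdc1 (0.896), Pkn3 (0.876) and Helz (0.865), and Atp2b1 to Smoc2 (0.930), Dctn6 (0.927) and Arhgap21 (0.920).

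The members lie apart in the genome (mm10). Slc8a2 is on chromosome 7 (16129826 to 16161063), Slc8b1 on 5 (120511168 to 120534024), Slc24a2 on 4 (86983124 to 87230477), Slc24a3 on 2 (145167754 to 145642166), Atp2b1 on 10 (98914406 to 99026143) and Atp2b4 on 1 (133699457 to 133801041). Slc8a3 (81197915 to 81333180) and Slc24a4 (102128733 to 102267091) are both on chromosome 12. Slc8a1, Slc8a3, Slc24a3 and Slc24a4 each overlap a gene of the opposite strand that is in the tables (Gm11096, Gm3693, Gm14092 and Gm16339). No source used here says how strand was used in counting, and how reads in these overlaps were assigned was not checked.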

How the data were processed

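Nuclei of whole hearts were counted per gene by the authors, who deposited raw UMI counts as a filtered matrix per library. Cell Ranger 6.1.0 is named in the submitters' processing notes and version 9.0.0 in the file headers. No source used here says if intronic reads were included. Kept nuclei had 500 or more genes and no more than 5% of UMIs from mitochondria, and the top 8% of Scrublet scores per library were removed as doublets (scanpy 1.11.5, Python 3.11.15, scipy 1.17.1). Classes and chambers were gated on marker genes, per 10000 UMIs of a nucleus, and nuclei that passed more than 1 class were set aside. Chamber markers that were level across chambers were left out after seeing the data. Counts were summed per gate and library, with exact Poisson intervals for levels and exact conditional binomial intervals for ratios. With 1 library per genotype there is no test, SD or p-value. For scaling alternatives TMM factors (edgeR 4.0.16) and size factors (DESeq2 1.42.0, R 4.3.3) were used. The steps were tested on simulated data.

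The members and gene lists were chosen with earlier results of these data known. All 9 members are named, as are genes of the transport list that stood apart in Ncx1-/- cardiomyocyte or endothelial nuclei, its Atp2b and Slc24 genes, and Bsg and Nptn. 1 gene that this rule would name is not reported here. Of 27998 gene IDs, 27645 were in GENCODE M21 (GRCm38), which gave the positions.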

Additional observations from a re-analysis of the deposited data

Results flagged for a closer look

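Atp2b4 moved in opposite directions in the 2 main classes of nuclei. Its ratio of Ncx1-/- to Ncx1+/+ was 1.29 in cardiomyocyte nuclei (61.2 and 47.6 CPM) and 0.58 in endothelial nuclei (89.2 and 153 CPM). In cardiomyocyte nuclei it did not reach 1.5-fold. The difference between the classes was not tested, since each genotype has 1 library.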

How the results depend on the processing

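No paired analysis was possible because each genotype has 1 library. With a 2-fold in place of a 1.5-fold limit, 0 members stood higher in Ncx1-/- ventricular nuclei (1 at 1.5-fold), 2 lower in endothelial nuclei (Slc8a1 and Slc24a2; 4 at 1.5-fold), and 0 lower in Ncx1+/- endothelial and mesenchyme-marked nuclei (1 each at 1.5-fold). With the low nuclei left out of Ncx1+/- and Ncx1+/+, 2 stood higher in ventricular nuclei (Slc24a4 and Atp2b4), a choice that favours a higher ratio for both. Against Ncx1+/+ alone, 1 stood higher in endothelial nuclei (Slc8b1). With no count minimum, 2 stood higher in mesenchyme-marked nuclei (Slc8b1 and Slc24a4). The shares of all genes called at these alternative settings are not given here, so these counts have no background beside them. Thinned to 1000 UMIs, 98.2, 32.8 and 12.5% of Ncx1-/-, Ncx1+/- and Ncx1+/+ cardiomyocyte nuclei lay at or below the 95th percentile of Ncx1-/-, against 95.6, 23.7 and 7.87% at 2000. The ratio of Slc24a4 in ventricular nuclei reversed to 0.86 in thinned nuclei, where 52, 31 and 46 counts were left. For Slc8a1 the canal over ventricular ratio reversed to 1.02 in Ncx1-/- thinned nuclei and to 0.97 in Ncx1+/- with cluster chambers, and the outflow tract ratio to 1.06 in Ncx1+/+ with cluster chambers; the cause was not tested. Slc8a3 stood apart in endothelial nuclei with TMM factors (0.53), size factors (0.53) and a stricter gate (0.46), where Slc24a2 (0.375) no longer did. Over all alternatives run, the ratios of Ncx1-/- to Ncx1+/+ kept the call, or the lack of one, in 265 cases. They gained it in 6, lost it in 2 and reversed in 1, and 4 values without a call moved. These counts cover cardiomyocyte, ventricular, endothelial and mesenchyme-marked nuclei. Calls in the other chambers are not among them. Ratios between chambers were less stable: with chambers set from clusters or thinned nuclei, 35 stayed within the counting interval of the value given, 40 lay outside it and 3 reversed. Of the ratios between endothelial gates, 8 stayed within it and 4 lay outside. Intervals cover counting error only, and gates under 100 counts limit what can be seen for Slc8a2, Slc8a3 and Slc8b1. Leaving out the low nuclei, the comparison with Ncx1+/+ alone and the totals without Slc8a1 and Malat1 were chosen after seeing the data.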
